A study of Mus musculus with 36 samples.

Results

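The livers compared here were taken 2 h after lights on (zeitgeber time 2, ZT2) from 3 THRB KO and 3 THRB WT mice, 6 of the 36 libraries of the series. The genes described are protein-coding and had 100 counts or more when all 36 libraries were added up, a rule met by 14193 protein-coding genes of 17994 genes of every kind, out of 54532 genes in the count table. The other 30 libraries, 3 per genotype at ZT6, ZT10, ZT14, ZT18 and ZT22, served to estimate the spread between livers and to show whether a difference at ZT2 was also seen in other mice. THRB KO mice were homozygous (THRB-/-) for a B6.129S1-Thrbtm1Df/J allele that impairs DNA binding of both isoforms of the receptor. The animals called THRB WT were not free of this allele but heterozygous for it (THRB+/-), so every control carried 1 mutated copy. All mice were males of 2 to 3 months on a C57Bl/6NCrl background, fed normal chow and kept under 12 h light and 12 h darkness. The mutated allele is in every cell of the body and not in hepatocytes alone, and each library is the liver of 1 mouse.

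Thyroid hormone receptor beta is the main receptor for thyroid hormone in hepatocytes. With bound T3 it activates target genes such as Dio1, and without hormone it recruits corepressors to many of the same genes, often through repeats of the hexamer AGGTCA. In the liver it is known for its part in the synthesis and clearance of cholesterol, in fatty acid synthesis and oxidation and in the turnover of the hormone itself. At ZT2 mice are at the start of their rest phase, when food intake falls and the liver passes from the fed to the fasting state.

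Libraries at ZT2 held 30281016 to 40322624 counts, of which 6.24% to 6.70% came from mitochondrially encoded genes. The first principal component (32.6% of the variance of log2 CPM over the 6 libraries) set the letter a livers of both genotypes, at -22.7 for THRB WT and -13.6 for THRB KO, apart from the other 4 at 1.21 to 18.3, and values that moved most without these livers are also given without them. Hepatocyte markers summed to 74200 to 93000 CPM (counts relative to the library size, scaled by TMM) in THRB WT and 86100 to 95200 CPM in THRB KO. Thrb (chr14:17660261-18038090) was transcribed in both genotypes, at 29.4, 36.5 and 27.2 CPM in THRB WT and 27.6, 32.6 and 31.9 CPM in THRB KO livers, so its count does not tell the genotypes apart and does not check the labels.

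At ZT2, 2 of the 14193 protein-coding genes differed between genotypes at an adjusted p under 0.05, which is 0.0141% of those tested (edgeR quasi-likelihood test). Ctsc, which encodes the lysosomal protease cathepsin C, was higher in THRB KO livers, and Gm3839, a gene with a Gapdh-like sequence, was lower. Before adjustment, 383 genes (2.7%) were higher and 402 (2.83%) lower in THRB KO with p under 0.05. The median log2 fold change over all genes was 0.01, with quartiles of -0.13 and 0.14, beside a median SE of 0.16. All 3 THRB KO livers lay above all 3 THRB WT livers for 951 genes (6.7% of those tested) and below them for 941 genes (6.63%). Genes other than Ctsc and Gm3839 are therefore given by their values, as none of them passed the test at ZT2 in this fit.

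Ctsc (chr7:88278085-88310888, plus strand) encodes cathepsin C, which removes dipeptides from the ends of proteins and activates the serine proteases of granulocytes and other immune cells. Its level was 84.1, 92.7 and 90.1 CPM in THRB WT and 198, 151 and 144 CPM in THRB KO livers, and the groups did not overlap. Ctsc rose by 0.89 ± 0.16 on the log2 scale (SE, 1.85-fold, adjusted p = 0.0172, edgeR). Within the letters that the mice share, the THRB KO level was 235%, 163% and 160% of the THRB WT level. The adjusted p of Ctsc rests on single libraries: without KO_ZT2 replicate a the log2 fold change was 0.73 with an adjusted p of 0.419, and without WT_ZT2 replicate a, b or c it was 0.85, 0.92 and 0.90 with adjusted p of 0.220, 0.0821 and 0.117 in edgeR. With the letters as a replicate block the difference was 0.87 with an adjusted p of 0.0958 (edgeR). In the other 30 mice Ctsc was higher in THRB KO at each of the 5 times, with a mean log2 fold change of 0.59 (adjusted p = 5.16e-06, edgeR). In bulk tissue, more cells of a type that holds Ctsc and more of its RNA per cell cannot be told apart. Markers of Kupffer cells and macrophages, which also express cathepsin C, summed to 281 to 585 CPM in THRB WT and 267 to 461 CPM in THRB KO, with 0 of 11 markers separated between the groups and a median log2 fold change of -0.04, which was 0.37 without WT_ZT2 replicate a, and their part in the Ctsc difference was not tested.

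The bases before the annotated start of 3 genes are shown because Ctsc passed the test at ZT2, Dio1 is a textbook target of the receptor, and Acsm1 is 1 of the 10 genes named as lower below that holds the hexamer. They were taken from RefSeq on GRCm38.p6, read 5′ to 3′ on the strand of the gene. Capitals mark AGGTCA or its reverse complement TGACCT.

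Ctsc, chr7:88277835-88278084, plus strand: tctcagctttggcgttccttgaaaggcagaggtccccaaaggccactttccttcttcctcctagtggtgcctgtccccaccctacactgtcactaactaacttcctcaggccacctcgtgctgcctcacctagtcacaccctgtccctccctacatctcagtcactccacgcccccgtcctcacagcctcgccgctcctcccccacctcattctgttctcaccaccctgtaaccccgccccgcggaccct

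Dio1, chr4:107307169-107307418, minus strand: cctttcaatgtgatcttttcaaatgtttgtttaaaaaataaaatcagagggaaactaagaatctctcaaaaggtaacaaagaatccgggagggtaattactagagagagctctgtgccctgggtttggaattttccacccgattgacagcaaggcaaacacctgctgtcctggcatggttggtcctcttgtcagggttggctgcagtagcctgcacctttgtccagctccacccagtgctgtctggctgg

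Acsm1, chr7:119617562-119617811, plus strand: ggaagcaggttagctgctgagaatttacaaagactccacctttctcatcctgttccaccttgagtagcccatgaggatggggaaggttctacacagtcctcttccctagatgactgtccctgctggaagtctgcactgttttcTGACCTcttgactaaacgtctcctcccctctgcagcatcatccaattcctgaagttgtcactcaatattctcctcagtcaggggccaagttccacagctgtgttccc

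The window of Acsm1 held 1 match, which begins 107 bases before the RefSeq start, and those of Ctsc and Dio1 held none. This RefSeq start lies inside the longer Acsm1 gene of the count table (chr7:119607026-119662515). Over all 32851 promoters in the RefSeq table, 14% had AGGTCA on either strand within the 250 bases before the start. Of the 20 genes named below for ZT2 and Dio1, 18 had an entry and 3 a match (Papss2, Klhdc8b and Acsm1). Matches of 6 letters are a description of these windows and not binding sites.

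Gm3839 (chr14:11280735-11356726, minus strand) is annotated as protein-coding and described as a predicted pseudogene. It was counted at 5.56, 7.33 and 7.78 CPM in THRB WT and at 1.01, 0.421 and 0.606 CPM in THRB KO livers, so that the highest THRB KO liver lay well under the lowest THRB WT liver. Gm3839 fell by 3.35 on the log2 scale (SE 0.516, adjusted p = 0.00240, edgeR). Its call was kept in every alternative fit at ZT2, with log2 fold changes from -3.75 to -3.09. In mice of the other 5 times its difference was -2.96 (adjusted p = 4.21e-10, edgeR). Over the whole day 17 of the 18 THRB KO livers lay below the lowest of 18 THRB WT livers (4.24 CPM), and the exception was KO_ZT10 replicate c at 8.72 CPM, a level inside the THRB WT range.

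Gm3839 shares a stretch of 1232 bases at 99.1% identity with Gapdh, the glycolytic enzyme, and at least 200 bases at 95% identity or more with 75 genes, so reads may have been divided among these copies by the counting. Gapdh was at 56.5, 18.2 and 17.9 CPM in THRB WT and 20.4, 13.9 and 11.1 CPM in THRB KO livers, with overlapping groups (log2 fold change -1.03 ± 0.66 (SE), unadjusted p = 0.128, edgeR). The copies Gm7336, at a mean of 6.03 CPM in THRB WT and 6.397 CPM in THRB KO, and Gm5559, at 9.16 and 10.1 CPM, had log2 fold changes of 0.09 and 0.15. The lower count of Gm3839 in THRB KO livers was not seen in these copies.

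Gm3839 lies 6.30 Mb from Thrb. The mutated allele came from another strain, THRB KO mice carry it on both chromosomes and their controls on 1, and therefore loss of the receptor and the linked segment of the chromosome cannot be told apart for neighbouring genes. Within 20 Mb of Thrb, 148 protein-coding genes were tested, with a median log2 fold change of -0.01. At ZT2 only Gm3839 of these passed the test, and over the other 5 times 7 did, beside 0.557% of all genes tested. The next in rank was Nid2, 1.71 Mb from Thrb, which encodes the basement membrane protein nidogen 2. Nid2 was at 5.87, 10.9 and 8.92 CPM in THRB WT and 2.08, 4.80 and 4.62 CPM in THRB KO livers (log2 fold change -1.16 ± 0.31 (SE), adjusted p = 0.749, edgeR). Rpl15, which encodes a protein of the large ribosomal subunit, followed with 137, 134 and 144 CPM in THRB WT and 117, 121 and 119 CPM in THRB KO livers. The counts of Nid2 and Rpl15 were lower without overlap at ZT2, and both passed the test over the other 5 times (-0.84 and -0.21, adjusted p = 0.00164 and 3.72e-04, edgeR). Rpl15 shares at least 200 bases at 95% identity or more with 14 genes, so its reads may have been divided among copies. Copies of Rpl15 with higher counts in THRB KO livers are given below.

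Dio1 encodes deiodinase type 1, which converts T4 to T3 and clears inactive forms of the hormone. Its level was 145, 60.8 and 59.8 CPM in THRB WT and 57.1, 33.7 and 31.6 CPM in THRB KO livers, with no overlap although the highest THRB KO liver came within 3 CPM of the lowest THRB WT liver. The log2 fold change was -1.12 ± 0.35 (SE) and did not pass the test (adjusted p = 0.864, edgeR). Both genotypes had their highest liver in letter a, and within letters the THRB KO level was 39.2%, 55.4% and 52.8% of the THRB WT level. With the letters as a replicate block Dio1 passed the test at ZT2, with a log2 fold change of -1.04 and an adjusted p of 0.00490 in edgeR. Without WT_ZT2 replicate a the difference was -0.56 (adjusted p = 0.981, edgeR). The mean difference of the other 5 times was -0.93 (adjusted p = 0.00136, edgeR), and Dio1 was lower in THRB KO at all 5.

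Of the 27 tested genes for receptors, deiodinases, transporters and carriers of the hormone, 3 were higher and 2 lower without overlap at ZT2, and the median log2 fold change was 0.06, against 0.003 without WT_ZT2 replicate a. Thra, the gene of the other thyroid hormone receptor, was at 17.8, 20.4 and 22.8 CPM in THRB WT and 20.2, 20.02 and 27.7 CPM in THRB KO livers (log2 fold change 0.16 ± 0.15, SE). Ttr, which encodes the thyroid hormone carrier transthyretin, was at 7705, 8607 and 8922 CPM in THRB WT and 6723, 7330 and 7280 CPM in THRB KO livers, a difference of -0.24 ± 0.13 (log2, SE) without overlap. Slc16a10, a transporter of thyroid hormone and aromatic amino acids, was at 82.4, 72.1 and 66.4 CPM against 101, 74.7 and 89.9 CPM, with overlapping groups. Ncoa1, which encodes a coactivator of nuclear receptors, was at 14.3, 14.1 and 13.2 CPM against 16.01, 14.5 and 16.5 CPM.

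Of 25 textbook targets of thyroid hormone, 3 were higher and 2 lower without overlap, with a median log2 fold change of 0.07, which was -0.03 without WT_ZT2 replicate a and 0.16 without KO_ZT2 replicate a. Cyp7a1, the rate-limiting enzyme of bile acid synthesis, was at 28.8, 24.3 and 31.8 CPM in THRB WT and 101, 86.3 and 31.2 CPM in THRB KO livers. The KO letter c liver lay within the THRB WT range and the other KO livers above it (log2 fold change 1.37 ± 0.46 (SE), adjusted p = 0.864, edgeR). Gpd2, the mitochondrial glycerol-3-phosphate dehydrogenase, was at 32.7, 27.7 and 22.7 CPM in THRB WT and 36.6, 39.9 and 35.5 CPM in THRB KO livers, a difference of 0.43 ± 0.17 (log2, SE). Gpd2 did not pass the test at ZT2 but did over the other 5 times (0.34, adjusted p = 0.0243, edgeR). Thrsp, a lipogenic gene named for its response to the hormone, was at 171, 458 and 265 CPM against 119, 278 and 224 CPM, and its livers overlapped.

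Beside Ctsc, the 9 genes with the lowest unadjusted p among those higher without overlap at ZT2, and with a mean of at least 50 counts, were Spred2, Pdzd2, Gys1, Foxn3, Cldnd1, Papss2, Hamp, Spred1 and Cbwd1, with adjusted p of 0.529 to 0.864 in edgeR. Spred2 and Spred1 encode inhibitors of the Ras and MAP kinase pathway. Spred2 was at 9.32, 11.1 and 10.6 CPM in THRB WT and 17.5, 13.1 and 15.3 CPM in THRB KO livers (log2 fold change 0.56 ± 0.13, SE). Spred1 was at 11.7, 10.8 and 9.01 CPM against 19.2, 12.99 and 15.03 CPM (0.58 ± 0.17). The differences were 1.48-fold for Spred2 and 1.49-fold for Spred1, and the lack of overlap was required by the naming rule. Over the other 5 times the mean difference was 0.23 for Spred2 (adjusted p = 0.0951, edgeR) and 0.01 for Spred1 (adjusted p = 0.986, edgeR).

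Papss2 and Gys1 are enzymes of sulfate and glycogen metabolism. Papss2, which makes the sulfate donor for sulfotransferases, was at 124, 153 and 147 CPM in THRB WT and 188, 207 and 253 CPM in THRB KO livers (0.61 ± 0.18). Gys1, the glycogen synthase best known from muscle, was at 2.23, 2.64 and 2.79 CPM against 4.04, 4.21 and 3.78 CPM (0.65 ± 0.17). Over the other 5 times Papss2 was also higher in THRB KO (0.43, adjusted p = 0.00375, edgeR), while Gys1 had a mean difference of -0.03.

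Hamp encodes hepcidin, the liver hormone that limits iron export to the blood. It was at 711, 809 and 933 CPM in THRB WT and 1531, 1765 and 1110 CPM in THRB KO livers, a difference of 0.85 ± 0.24 (log2, SE). In THRB WT the mean level was lowest at ZT6 (690.1 CPM) and second lowest at ZT2, whereas in THRB KO the ZT2 mean of 1469 CPM was the third highest of the day. At the other times Hamp differed by -0.05 between genotypes (adjusted p = 0.93, edgeR). The transcription factor Foxn3 was at 52.3, 36.01 and 52.97 CPM in THRB WT and 60.5, 59.8 and 72.8 CPM in THRB KO livers (0.45 ± 0.12), and passed the test over the other 5 times (0.31, adjusted p = 0.00326, edgeR). Pdzd2, Cldnd1 and Cbwd1 had differences of 1.07, 0.35 and 0.40.

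Beside Gm3839, the 9 genes named as lower were Slc46a3, Cyp2c69, Cyp2c40, Nid2, Fmn1, Acsm1, Klhdc8b, Emsy and Snhg11, with adjusted p of 0.749 to 0.864 in edgeR. Slc46a3, a lysosomal membrane transporter, was at 42.9, 41.5 and 34.3 CPM in THRB WT and 28.9, 22.7 and 26.6 CPM in THRB KO livers (log2 fold change -0.60 ± 0.15, SE). Acsm1, which activates medium-chain fatty acids with coenzyme A, was at 416, 403 and 441 CPM against 345, 356 and 349 CPM (-0.26 ± 0.07), a small difference with a narrow spread. Snhg11, a host gene of small nucleolar RNAs that the table lists as protein-coding, was at 22.0, 19.2 and 28.5 CPM against 8.35, 11.7 and 10.4 CPM (-1.20 ± 0.36). These 3 genes also passed the test over the other 5 times, with differences of -0.48, -0.15 and -0.91 (adjusted p = 1.98e-04, 0.0202 and 0.00262, edgeR).

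Cyp2c40 and Cyp2c69 encode cytochrome P450 enzymes of a cluster on chromosome 19. Cyp2c40 was at 15.01, 12.8 and 12.97 CPM in THRB WT and 2.64, 3.98 and 1.15 CPM in THRB KO livers (-2.38 ± 0.63). Cyp2c69 was at 3.74, 2.02 and 3.46 CPM against 0.356, 0.544 and 0.115 CPM (-3.15 ± 0.82). They share 97.7% identity over 1647 bases, so they are not independent readings, and their copies Cyp2c67 and Cyp2c68 had log2 fold changes of -0.04 and -0.03 at means of 309 and 190 CPM in THRB WT. The ZT2 mean of Cyp2c40 in THRB WT, 13.6 CPM, was the highest of its day, beside 2.04 to 6.11 CPM at the other times, whereas THRB KO had 2.59 CPM at ZT2. With the letters as a block within ZT2 alone Cyp2c40 passed the test (-2.48, adjusted p = 0.0488, edgeR), and with the block over all times it did not (adjusted p = 0.113, edgeR). Fmn1, which encodes the actin-nucleating protein formin 1, was at 3.45, 3.37 and 3.14 CPM against 1.49, 1.44 and 1.73 CPM (-1.10 ± 0.30). Klhdc8b and Emsy had differences of -0.51 and -0.39.

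**Figure D1:**
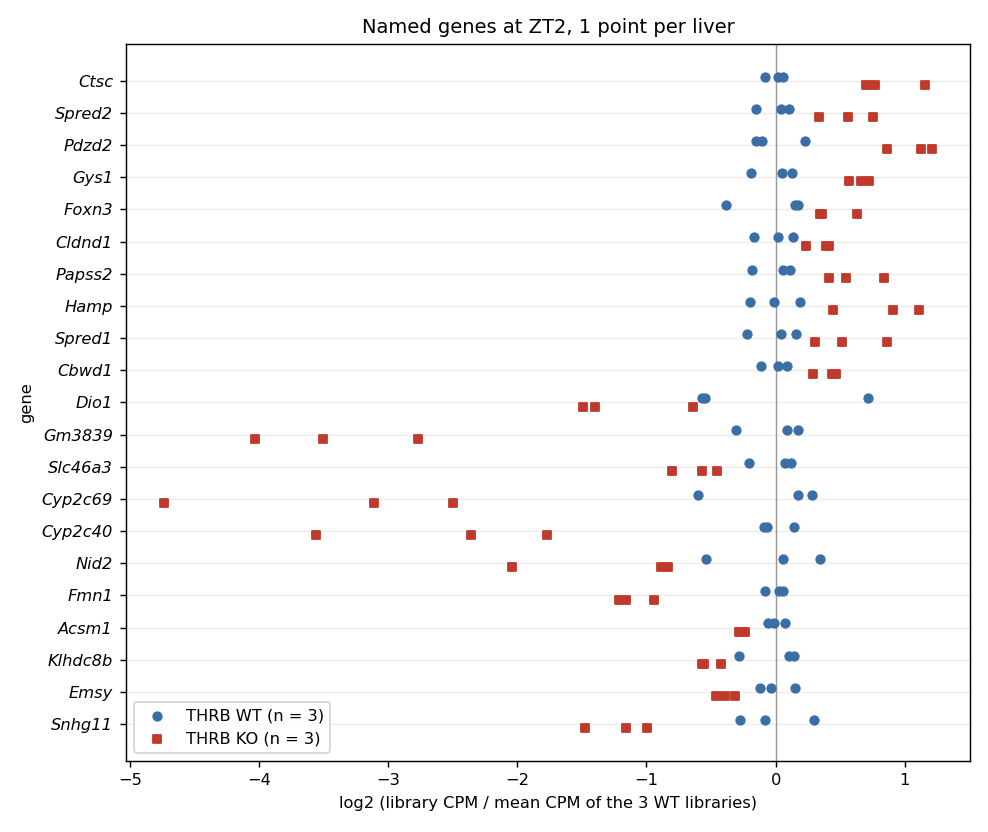
Level of the 20 named genes and Dio1 in each ZT2 liver as log2 of its CPM over the mean of the 3 THRB WT livers, with circles for THRB WT and squares for THRB KO (n = 3 each). The genotypes do not overlap for any gene shown, as the naming rule required for all but Dio1, and Gm3839, Cyp2c69 and Cyp2c40 lie farthest from 0.

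All comparisons of ZT2 with other times rest on other mice, since each mouse gave 1 liver. Over the other 5 times, 79 protein-coding genes differed between genotypes in the same fit, 36 of them higher and 43 lower in THRB KO (0.557% of those tested). Of these 79 genes, 75 had the same direction at ZT2 and 40 were separated without overlap in that direction. Of all genes tested, 6.7% were separated higher and 6.63% lower at ZT2. Of the 785 genes with an unadjusted p under 0.05 at ZT2, 599 (76.3%) had the same direction over the other 5 times, against 60.6% of all genes tested. Among the named genes, 8 of the 10 higher and 10 of the 10 lower ones kept their direction, and 3 and 5 of them passed the test over the other 5 times.

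**Figure D2:**
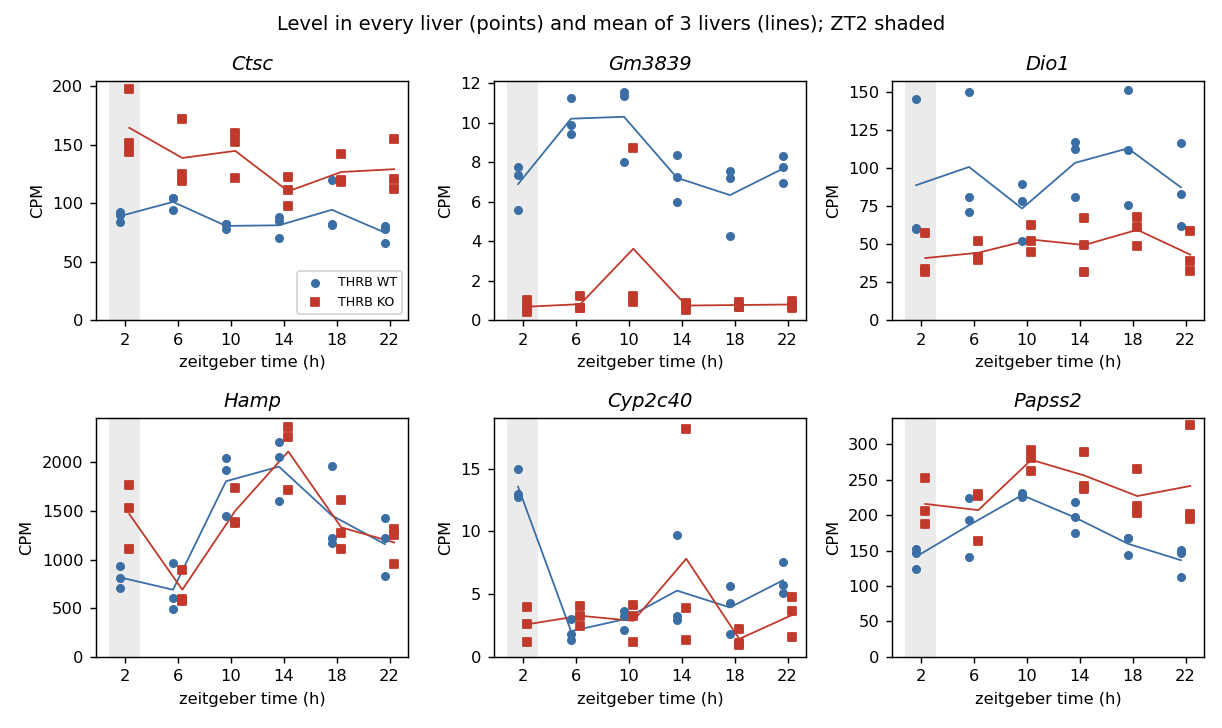
CPM of Ctsc, Gm3839, Dio1, Hamp, Cyp2c40 and Papss2 against zeitgeber time in hours, with a point for each liver, a line through the means of 3 livers and ZT2 shaded. Ctsc and Dio1 differ in the same direction at all 6 times, while Hamp and Cyp2c40 are apart at ZT2 and intermingled at ZT6 and ZT10. The mean of Cyp2c40 is also lower in THRB KO at ZT18 and ZT22.

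No gene had a genotype difference at ZT2 that differed from its mean difference over the other 5 times at an adjusted p under 0.05 in edgeR, with 414 genes at an unadjusted p under 0.05, and DESeq2 also called 0, with 419. The 5 genes with the lowest p were Gm4787, Lrig2, Gen1, Gys1 and Thsd1, with unadjusted p of 9.41e-04 to 0.00129 in edgeR and an adjusted p of 0.99997. Gys1, at 0.65 at ZT2 and -0.03 at the other times, was the only 1 of these 5 that also stood among the genes named as higher. Gen1, which encodes a nuclease that resolves DNA junctions, was at 1.40, 1.23 and 1.06 CPM in THRB WT and 0.861, 0.396 and 0.635 CPM in THRB KO livers, with a difference of -0.97 at ZT2 and 0.13 at the other times. Hamp had a difference of differences of 0.90 ± 0.27 (SE, unadjusted p = 0.00214, edgeR) and Cyp2c40 of -2.15 ± 0.68 (unadjusted p = 0.00393, edgeR). A difference particular to ZT2 was therefore not shown for any gene by this test.

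**Figure D3:**
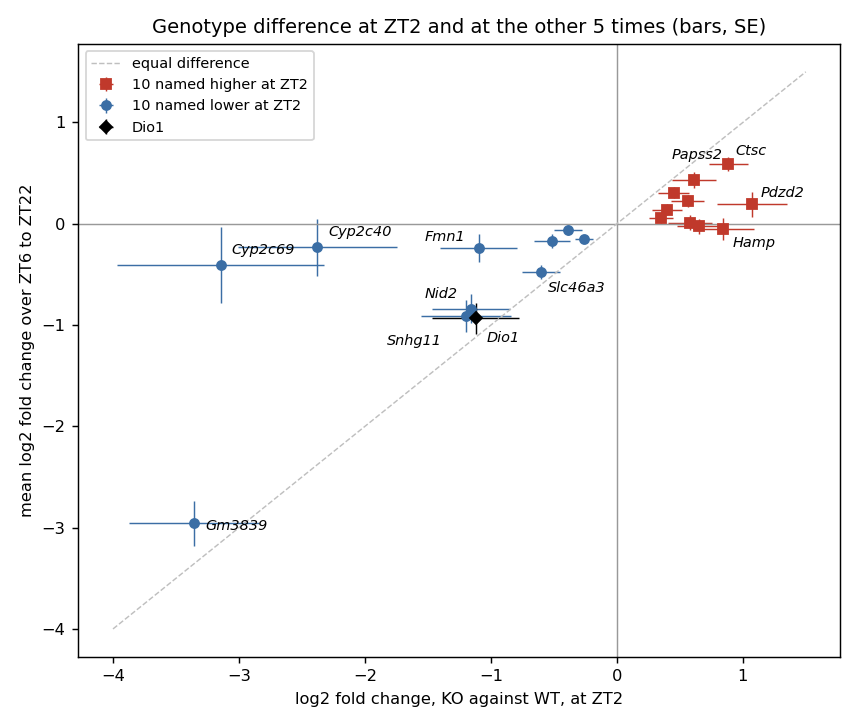
Log2 fold change of THRB KO against THRB WT at ZT2 (horizontal) and the mean log2 fold change over ZT6 to ZT22 (vertical) for the named genes and Dio1, with bars of 1 SE and a dashed line of equal difference. Gm3839 and Dio1 lie near the dashed line, and Cyp2c40 and Cyp2c69 lie near 0 on the vertical axis. Their vertical values average differences of both signs. From ZT6 to ZT22 these were 0.66, -0.05, 0.55, -1.45 and -0.87 for Cyp2c40. For Cyp2c69 they were 0.50, 0.17, 0.43, -1.66 and -1.47.

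In the fit without a block, none of the gene lists considered here had a member past the test at ZT2 other than Gm3839 in the list of neighbours of Thrb, so lists are described by their counts and medians. With the letters as a replicate block the list member Dio1 passed as well, and with the block within the 6 ZT2 libraries alone, a fit added after seeing the data, Dio1, Cyp2c40, Cyp2b9, Abcd2, Ugt1a9 and Elovl3 did (adjusted p = 0.0354 to 0.04999, edgeR). Counts and medians are to be read against a median of 0.01 and shares of 6.7% and 6.63% of genes separated higher and lower among all genes tested. These shares are not even over gene length. Of the 3549 shortest genes, 102 were separated higher and 455 lower, and lists were not compared with genes of matched length. The medians of the clock, cholesterol, bile acid, fatty acid oxidation, interferon, heat shock, unfolded protein and periportal lists each turned sign when some single library was left out. Of 26 genes of cholesterol synthesis and uptake, 22 had a positive log2 fold change, with a median of 0.11, and 1 was separated higher. Without WT_ZT2 replicate a the median of the list was 0.01, and it ranged from -0.02 to 0.275 when single libraries were left out. Of 25 genes of bile acid synthesis and transport, 2 were separated higher and 1 lower (median 0.01). Abcb11, the bile salt export pump, was at 657, 721 and 682 CPM against 885, 776 and 806 CPM (0.26 ± 0.12). Nr0b2, which encodes the repressor SHP that acts on Cyp7a1, was at 106, 63.1 and 90.1 CPM against 38.8, 58.6 and 61.9 CPM (-0.70 ± 0.42).

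For fatty acids, 2 of 37 genes of oxidation and PPARalpha targets were separated higher and 4 lower, with a median of 0.03. Fabp1, the main fatty acid-binding protein of the liver, was at 4333, 3692 and 4179 CPM in THRB WT and 2995, 3095 and 2783 CPM in THRB KO livers (-0.46 ± 0.14 (SE), adjusted p = 0.864, edgeR), and all THRB KO livers were lower. Acot12, an acetyl-CoA hydrolase, was at 74.9, 77.4 and 74.1 CPM against 90.7, 82.5 and 84.7 CPM (0.19 ± 0.10). Of 27 genes of lipogenesis and triglyceride synthesis 1 was separated, Scd2, a stearoyl-CoA desaturase, at 5.56, 7.18 and 5.49 CPM against 7.69, 9.06 and 11.7 CPM (0.64 ± 0.32). The list median was 0.03 and turned to -0.07 without WT_ZT2 replicate a. Of 30 genes of glucose and glycogen metabolism 1 was separated higher and 0 lower (median 0.07, and -0.03 without WT_ZT2 replicate a).

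Lists of lipid genes that the study itself drew from these mice were counted as well, and because ZT2 livers took part in that choice they are not independent evidence of a direction. All 9 genes of its cholesterol and bile acid list had positive log2 fold changes at ZT2 (median 0.25), with 1 separated, and so did all 7 of its fatty acid metabolism list (median 0.24), with 3 separated. Of the 9 genes of its list on acyl-CoA synthesis, hydrolysis and transport, 4 were separated lower and 0 higher (median -0.26). These were Acsm1, Fabp1, Acsm2 and Abhd6. Acsm2, another medium-chain acyl-CoA synthetase, was at 4.09, 3.11 and 2.85 CPM in THRB WT and 1.75, 2.42 and 0.866 CPM in THRB KO livers (-0.98 ± 0.39). Abhd6, a monoacylglycerol lipase, was at 32.3, 29.4 and 33.7 CPM against 23.8, 24.6 and 25.4 CPM (-0.37 ± 0.16) and is also within 20 Mb of Thrb.

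Genes with higher expression in male than in female liver had a median of -0.30 over 22 tested, with 6 separated lower and 0 higher. Cyp2u1, a fatty acid hydroxylase, was at 59.4, 47.6 and 49.7 CPM in THRB WT and 38.5, 37.5 and 34.9 CPM in THRB KO livers (-0.50 ± 0.30). Cyp4a12b, a hydroxylase of arachidonic acid, was at 127, 103 and 76.9 CPM against 88.9, 42.6 and 32.4 CPM, with overlap. Mup9, a major urinary protein, was at 824, 81.8 and 39.7 CPM against 67.2, 110 and 86.9 CPM. Its log2 fold change of -1.84 became 0.54 without WT_ZT2 replicate a, while the median of the list without that liver was -0.19. Genes with higher expression in female liver had a median of -0.03 over 17 tested, with 1 separated higher and 2 lower, the latter being Cyp2c40 and Cyp2c69. This median was 0.32 without KO_ZT2 replicate a, ranged from -0.26 to 0.33 when single libraries were left out, and was 0.64 over the other 5 times. Abcd2, a peroxisomal fatty acid transporter, was at 6.83, 12.6 and 18.05 CPM against 15.8, 27.2 and 29.9 CPM, with overlap. It passed the test over the other 5 times (1.10, adjusted p = 0.00740, edgeR) and, at ZT2, only with the block within ZT2 (1.002, adjusted p = 0.0488, edgeR).

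Of 16 genes of the growth hormone and IGF axis, 1 was separated higher and 1 lower (median 0.04, and -0.07 without KO_ZT2 replicate a). Igf1, which encodes the circulating growth factor made by the liver, was at 580, 592 and 678 CPM in THRB WT and 517, 580 and 501 CPM in THRB KO livers. These groups nearly touched, with the lowest THRB WT liver at 580.02 CPM and the highest THRB KO liver at 579.96 CPM, although Igf1 counts as separated. Of 25 genes of xenobiotic metabolism and its receptors CAR, PXR and AhR, 2 were separated higher and 1 lower (median 0.16, and 0.09 without WT_ZT2 replicate a). Ugt1a9, which conjugates drugs and other compounds with glucuronic acid, was at 35.3, 48.9 and 48.7 CPM against 61.6, 85.05 and 75.4 CPM (0.74 ± 0.32), and passed only with the block within ZT2 (adjusted p = 0.0354, edgeR).

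The 22 genes of the circadian clock had a median of -0.03, with 0 separated higher and 1 lower, and 0 had an unadjusted p under 0.05 (edgeR). The clock repressor Bhlhe40 was at 83.7, 79.2 and 48.1 CPM in THRB WT and 41.6, 65.0 and 37.3 CPM in THRB KO livers. Dbp, an output gene of the clock, was at 4.73, 0.733 and 0.998 CPM against 2.20, 0.643 and 0.895 CPM, and its log2 fold change turned from -0.79 to 0.50 without WT_ZT2 replicate a. Per1 was at 8.21, 2.81 and 3.73 CPM against 4.28, 20.4 and 2.02 CPM, high in the KO letter b liver alone. All 3 of these genes had overlapping genotypes.

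Of 25 acute phase genes, 2 were separated higher (Hamp and Steap4) and 1 lower, with a median of 0.08, which was -0.08 without KO_ZT2 replicate a. Steap4, a metalloreductase, was at 52.4, 58.5 and 50.6 CPM in THRB WT and 128, 65.2 and 63.9 CPM in THRB KO livers, so most of its log2 fold change of 0.67 came from the KO letter a liver, without which it was 0.26. Mt1, a metallothionein, was at 24.6 CPM in that liver and between 4.11 and 5.10 CPM in the other 5. Saa1, serum amyloid A1, was at 234 CPM in the WT letter a liver and between 15.9 and 73.5 CPM in the other 5. Of 26 genes of the interferon response and antigen presentation, 4 were separated higher and 2 lower (median 0.00), among them Usp18, a protease that removes ISG15, at 9.04, 7.04 and 8.42 CPM against 13.3, 10.6 and 12.96 CPM. Lists of immediate early genes and of the glucocorticoid response had 0 separated genes of 18 and of 13. The list of the unfolded protein and integrated stress response had 1 separated of 21, and that of heat shock and cold-inducible genes 1 of 16.

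**Figure D4:**
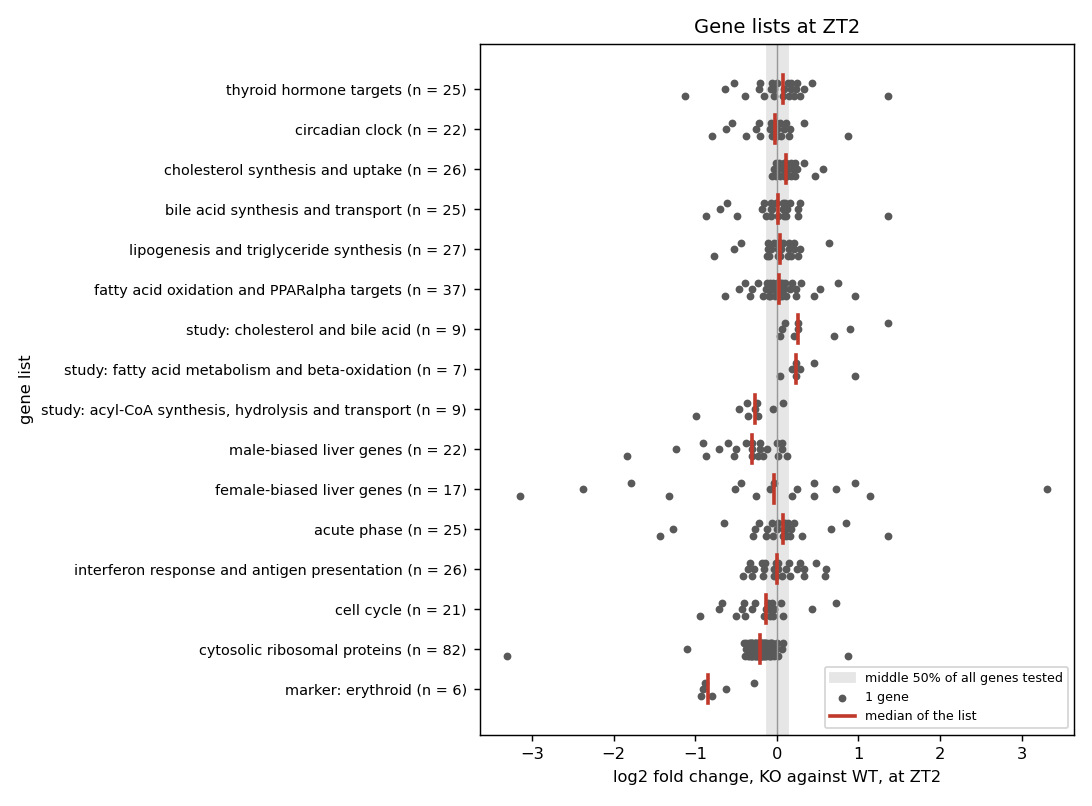
Log2 fold change at ZT2 of each tested gene (points) in 16 gene lists, with the median of each list (red line) and the middle 50% of all genes tested (grey band, -0.13 to 0.14). Medians of the male-biased, erythroid, ribosomal, acyl-CoA and cell cycle lists lie left of the band (the cell cycle list inside it without WT_ZT2 replicate a) and those of the study's lists on cholesterol and fatty acids right of it.

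Short genes tended to be lower and long genes higher in THRB KO livers at ZT2. When genes were ranked by their length in the count table and cut into 4 bins, the median log2 fold change of the shortest bin (up to 2644 bases) was -0.08, with 102 genes separated higher and 455 lower. In the longest bin (6586 bases or more) it was 0.05, with 330 higher and 138 lower. For the mean difference over the other 5 times the medians of these bins were -0.03 and 0.02. A mean over times can hide shifts that vary in sign, and single times were not compared. Cytosolic ribosomal protein genes, a list of short genes chosen after their values were seen, had a median of -0.21 over 82 genes, with 35 separated lower and 0 higher. Leaving out single libraries moved this median from -0.28 to -0.13, and for the mean difference over the other 5 times it was -0.05. Rpl27 was at 247, 210 and 286 CPM in THRB WT and 185, 184 and 202 CPM in THRB KO livers (-0.38 ± 0.12). Fabp1 and Ttr are other short genes that were lower, whereas Hamp, of 410 bases, was higher. Of the named genes in the longest bin, Pdzd2, Foxn3 and Spred1 were higher, whereas Fmn1, Klhdc8b, Emsy and Snhg11 were lower. The part of gene length in this list and in these genes was not tested.

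**Figure D5:**
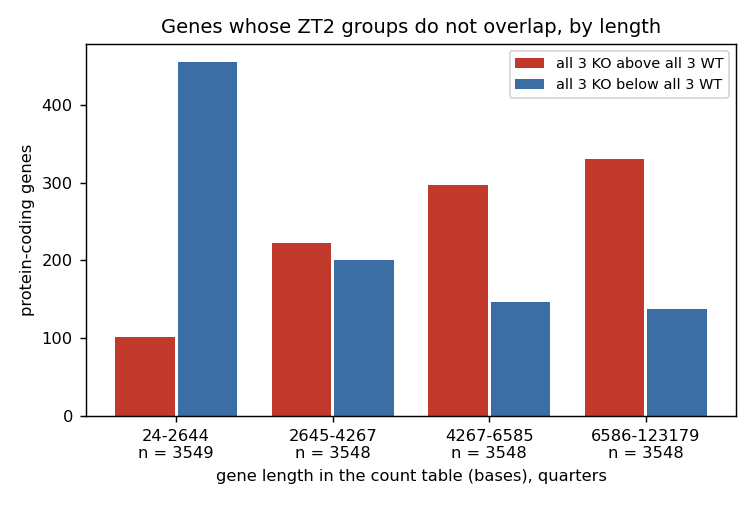
Number of protein-coding genes whose 3 THRB KO livers lie all above (red) or all below (blue) the 3 THRB WT livers at ZT2, in 4 bins of gene length in bases. Counts of lower genes fall from 455 to 138 and counts of higher genes rise from 102 to 330 from the shortest to the longest bin.

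Markers of other cells that a piece of liver can hold were compared as well. The 6 tested markers of erythroid cells all had negative log2 fold changes (median -0.84, 0 separated), with sums of 302 to 575 CPM in THRB WT and 198 to 351 CPM in THRB KO livers. Hbb-bs, a beta globin, was at 256, 92.7 and 159 CPM against 131, 80.7 and 65.01 CPM. Without WT_ZT2 replicate a the median of the erythroid markers was -0.46. Of 10 markers each of endothelial cells and of stellate cells and fibroblasts, 1 and 0 were separated, and markers of T, NK and B cells summed to at most 14.2 CPM in any liver. Of 21 cell cycle genes, 4 were separated lower and 0 higher (median -0.13, and -0.06 without WT_ZT2 replicate a). Markers of pericentral hepatocytes had a median of -0.13 and those of periportal hepatocytes 0.03, with 1 of 13 and 2 of 12 separated. Cps1, the first enzyme of the urea cycle, was at 2169, 2910 and 2417 CPM in THRB WT and 3071, 3309 and 2983 CPM in THRB KO livers (0.32 ± 0.17). The part of these cells in the differences of single genes was not tested.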

How the data were processed

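The authors sequenced poly-A RNA of whole liver with non-directional libraries, mapped reads to GRCm38 with HISAT2 and counted them per gene with FeatureCounts, and the deposited values are whole-number counts without normalization. Versions, the annotation release and the handling of reads with several matches are not given in the sources used here, and without strand reads of overlapping genes cannot be told apart. All genes that reached 100 counts when 36 libraries were added up were tested with edgeR 4.0.16 (limma 3.58.1, R 4.3.3; TMM, glmQLFit and glmQLFTest, 1 mean for each of 12 groups, 24 residual degrees of freedom), two-sided, with p-values adjusted by Benjamini-Hochberg over 17994 genes and a threshold of 0.05. CPM use TMM library sizes, and fold changes the default prior count of the edgeR fit. A prior count of 2 was used for the log2 CPM of the principal components and of the letter correlations. The SE was taken as the log2 fold change over the square root of F. The fit was tested on simulated data. DESeq2 1.42.0, other filters and scalings, a block for the letters and leaving out single libraries were the alternatives, and the block within ZT2 alone was added after seeing the data. Deviations of livers of the same letter from their group means correlated at ZT2 with r of 0.381, 0.221 and 0.238 across genes, all above a limit of 0.1. Livers of unlike letters were not correlated directly. As deviations cancel within a group, positive same-letter values leave the unlike-letter covariances negative on average. The mouse labels of livers with the same letter at ZT2 have nearby numbers in both genotypes. The labels do not say what a letter or number stands for, so a pairing by design is not known. The main fit did not use the letters.

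Named genes were the calls at ZT2 without overlap and a mean of at least 50 counts, filled up to 10 per direction by the lowest unadjusted p, then up to 4 of lowest p per gene list, Thrb, Thra and Dio1, and the 5 lowest p for the difference of ZT2 from the other times. Genes outside this rule (Gapdh and other copies, Trim14, Moxd1 and non-coding genes) were named after their values were seen. The members and lists were chosen with earlier results of these data known. Copies were sought with BLAST 2.17.0 (95% identity or more over at least 200 bases, GENCODE M21 transcripts). Libraries are separate mice, and all pairs within a genotype at ZT2 differed by more than counting noise. Pairs at the other times were not checked in this way. The values of 1 gene are not reported here.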

Additional observations from a re-analysis of the deposited data

How the results depend on the processing

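Of the 2 calls at ZT2, Gm3839 was kept by every alternative and Ctsc was lost with the 6 ZT2 libraries alone (1 call), with the letters as a replicate block (3 calls: Gm3839, Dio1 and Trim14) and without 4 of the 6 libraries, so that leaving out single libraries gave 1 to 2 calls. Gene counts of 1 to 3 leave little room for a comparison of settings. A block within the ZT2 libraries alone, added after seeing the data, gave 12 calls, 5 higher and 7 lower, of which 1 (Gm3839) was among the 2. In that fit Ctsc had an adjusted p of 0.0546 (edgeR). Over the other 5 times DESeq2 gave 150 calls and the replicate block 186, against 79, and leaving out single ZT2 libraries gave 72 to 83. Over all 6 times 15 of 18 same-letter pairs had a correlation over 0.1 (lowest -0.0897), so the limit was not met by every pair beyond ZT2. For the difference of ZT2 from the other times the count was 0 under all alternatives run, with the replicate block included. DESeq2 size factors shifted the median log2 fold change of all genes from 0.00861 to 0.00966 and changed no call at ZT2. The cause of these changes was not tested. All 20 named genes kept their direction in every fit. With 3 livers a group and a median SE of 0.16, differences of a size common among these genes were not detectable after adjustment.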

Other observations

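Among genes that do not encode proteins, 3 passed the test at ZT2, all higher in THRB KO livers. Gm10020, a processed pseudogene on chromosome 15, was at 11.3, 10.2 and 11.3 CPM in THRB WT and 23.0, 24.7 and 24.2 CPM in THRB KO livers, 204%, 241% and 215% within letters (log2 fold change 1.13 ± 0.09 (SE), adjusted p = 1.38e-09, edgeR). Rpl15-ps2, a processed pseudogene on chromosome 9, was at 2.84, 2.11 and 2.49 CPM against 5.11, 4.58 and 5.89 CPM, 180%, 217% and 236% (adjusted p = 0.0356, edgeR). Both are copies of Rpl15, with 99.7% identity over 612 bases for Gm10020 and 98.7% over 613 bases for Rpl15-ps2, and Rpl15 lies within 20 Mb of Thrb and was lower in THRB KO livers at ZT2 (138 ± 5.49 against 119 ± 1.94 CPM, SD, n = 3). Over the whole day all 18 THRB KO livers lay above all 18 THRB WT livers for both pseudogenes (10.02 to 13.01 against 21.4 to 26.8 CPM for Gm10020). Among further copies of Rpl15, the ZT2 means in THRB WT and THRB KO were 8.92 and 11.6 CPM for Gm4294 and 2.47 and 4.01 CPM for Rpl15-ps3. They were 0.630 and 0.741 CPM for Gm49594, and lower in THRB KO for Gm13413, at 0.114 and 0.0569 CPM. Reads of such copies cannot be told apart with certainty. Whether the counts of the pseudogenes come from Rpl15, and whether the lower count of Rpl15 reflects less of its RNA, was not tested.

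9030619P08Rik, a transcribed pseudogene on chromosome 15 that shared no stretch of 200 bases with another transcript, was at 14.9, 7.71 and 6.66 CPM in THRB WT and 104, 50.8 and 54.7 CPM in THRB KO livers. The log2 fold change was 2.84 ± 0.43 (SE, adjusted p = 0.00240, edgeR), and within letters the THRB KO level was 698%, 659% and 820% of the THRB WT level. At the other 5 times the difference was 2.72, and over the whole day the 18 THRB KO livers (16.2 to 104 CPM) lay above the 18 THRB WT livers (3.63 to 15.9 CPM).

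Rpl30 varied widely between livers. It was at 4.85, 91.0 and 65.1 CPM in THRB WT and 6.68, 4.58 and 5.02 CPM in THRB KO livers at ZT2, and over the day it ranged from 3.78 to 106 CPM in THRB WT and from 4.00 to 74.2 CPM in THRB KO livers. Moxd1, which encodes a monooxygenase-like protein, was at 25.1 CPM in the WT letter a liver and at 0 to 0.149 CPM in the other 5, so its calls without a filter on low counts and with the block within ZT2 (adjusted p = 0.00911 and 0.0220, edgeR) rest on 1 liver, without which its log2 fold change turned to 3.79. Trim14, called with the replicate block (0.64, adjusted p = 0.0453, edgeR), was at 17.8, 17.8 and 12.9 CPM in THRB WT and 25.6, 25.04 and 24.2 CPM in THRB KO livers, and shares 1356 bases with the overlapping gene Nans.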
